A study of Mus musculus with 8 samples.

Results

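Expression of 9 genes of the IL-1 family was examined in MC38 tumors that had or had not been exposed to violet light. The genes were chosen by name, with earlier results of these data known. They were ligands (Il1a, Il1b, Il33 and Il18), a receptor antagonist (Il1rn) and receptors (Il1r1, Il1r2, Il1rap and Il1rl1). All 9 were found among the 24421 genes of the count table. MC38 cells come from a mouse colon adenocarcinoma. The fluorescent protein Kaede turns from green to red under violet light, so that cells present in a tumor at exposure can be told from cells that enter later. Female B6 Kaede mice aged 9 weeks received 250000 MC38 cells, and tumors had reached about 5 mm in diameter by day 10. In the photoconverted group (n = 4) the tumor was then lit with 405-nm light for 3 min, and in the control group (n = 4) it was not. Tumors were taken 5 h after the light, controls at the same time, for bulk RNA-seq, which asked whether labeling itself affects the cells of the tumor. Each library was 1 whole tumor, so tumor cells, infiltrating cells and any adjoining host tissue were measured together, and the Kaede protein was carried by the host mouse. Differences in the number of cells of a type and in RNA per cell cannot be told apart in such samples.

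IL-1α (Il1a) and IL-1β (Il1b) act on the same receptor, IL-1R1 (Il1r1), which signals with the accessory chain IL-1RAP (Il1rap) through MyD88 to NF-kB. IL-1Ra (Il1rn) occupies IL-1R1 without signaling, and IL-1R2 (Il1r2) is a decoy receptor that binds IL-1 but lacks a signaling domain. IL-33 (Il33), which stromal, endothelial and epithelial cells release when damaged, acts on ST2 (Il1rl1) with the same accessory chain, and a soluble form of ST2 acts as a decoy. IL-18 (Il18) uses a receptor pair of its own, and IL-1β and IL-18 are cut into active form by caspase-1 in inflammasomes. IL-1α is stored in many cells as an alarm signal, whereas IL-1β is made mainly by activated myeloid cells.

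In the mouse genome (GRCm38, the build that the submitters' processing notes call mm10) 3 of the receptors lie on chromosome 1 and the IL-1 ligands and antagonist on chromosome 2. Positions of genes were taken from GENCODE M21. A run of 6 receptor genes on the plus strand spans 478 kb, in the order Il1r2 (40074079 to 40125231), Il1r1 (40225080 to 40317257), Il1rl2 (40324610 to 40367562), Il1rl1 (40429570 to 40465415), Il18r1 (40465552 to 40500854) and Il18rap (40515362 to 40551705). On chromosome 2, Il1b (129364570 to 129371139) and Il1a (129299610 to 129309972) lie 54.6 kb apart on the minus strand, while Il1rn (24336853 to 24351494, plus strand) lies 105 Mb away. The remaining members are Il1rap on chromosome 16 (26581704 to 26730117), Il33 on chromosome 19 (29925114 to 29960718) and Il18 on chromosome 9 (50554827 to 50581840), each on the plus strand. Shown here are the 250 bases before annotated starts of the ligand genes whose means differed most between the groups and of Il1rl1, the receptor with the most counts. The sequences are from RefSeq (GRCm38.p6), read 5′ to 3′ on the strand of the gene, and capitals mark matches to the motifs listed after them.
Il1a, chr2:129309973-129310222, minus strand: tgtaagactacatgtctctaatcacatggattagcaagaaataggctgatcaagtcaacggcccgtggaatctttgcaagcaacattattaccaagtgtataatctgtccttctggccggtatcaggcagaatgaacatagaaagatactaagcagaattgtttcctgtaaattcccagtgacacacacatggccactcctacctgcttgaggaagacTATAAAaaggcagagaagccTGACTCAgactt
Il1b, chr2:129371140-129371389, minus strand: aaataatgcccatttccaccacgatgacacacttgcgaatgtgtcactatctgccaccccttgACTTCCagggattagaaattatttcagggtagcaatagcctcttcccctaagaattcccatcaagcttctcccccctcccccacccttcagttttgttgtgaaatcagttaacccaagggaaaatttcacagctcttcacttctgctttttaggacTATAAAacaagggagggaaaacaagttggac
Il33, distal start, chr19:29924863-29925112, plus strand: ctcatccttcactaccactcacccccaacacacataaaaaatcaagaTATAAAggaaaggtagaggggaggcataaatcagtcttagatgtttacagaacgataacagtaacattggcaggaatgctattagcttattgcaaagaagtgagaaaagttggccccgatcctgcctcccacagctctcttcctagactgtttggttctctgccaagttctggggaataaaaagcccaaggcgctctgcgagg
Il33, proximal start, chr19:29945540-29945789, plus strand: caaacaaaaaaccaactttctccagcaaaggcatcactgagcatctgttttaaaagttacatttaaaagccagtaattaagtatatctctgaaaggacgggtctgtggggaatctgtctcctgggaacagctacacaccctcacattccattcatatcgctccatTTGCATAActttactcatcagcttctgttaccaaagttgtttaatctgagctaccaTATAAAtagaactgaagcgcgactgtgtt
Il1rl1, distal start, chr1:40429320-40429569, plus strand: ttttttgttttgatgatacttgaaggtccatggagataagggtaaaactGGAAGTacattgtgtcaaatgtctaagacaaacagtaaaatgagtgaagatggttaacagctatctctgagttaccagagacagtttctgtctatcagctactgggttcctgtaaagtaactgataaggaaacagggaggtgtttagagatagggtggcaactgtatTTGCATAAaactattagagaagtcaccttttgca
Both strands were searched for each motif. Matches for AP-1, a factor of Fos and Jun proteins, were to TGANTCA. Those for PU.1, a factor of myeloid cells, were to GGAAGT, and those for C/EBP factors were to TTGCNNAA. The TATA box was searched as TATAAA, the core of a heat shock element as TTCNNGAA and NF-kB by its 10-base consensus. Of all 32817 such windows, 6.75% held the AP-1 letters, 19.7% those of PU.1, 9.57% those of C/EBP, 12.4% TATAAA, 7.16% TTCNNGAA and 3.90% the NF-kB consensus. A TATA box began 32 bases before the Il1a start, 31 before the Il1b start and 29 before the proximal Il33 start. Il1a also held an AP-1 match that began 12 bases before its start, and Il1b a PU.1 match. The distal Il33 window held a TATAAA 203 bases before its start, and the proximal Il33 window a C/EBP match. In the distal Il1rl1 window there were a PU.1 and a C/EBP match. No TTCNNGAA and no NF-kB consensus was found in these 5 windows, which says only that these letters were not in them. Counts per gene do not tell which start of Il33 or Il1rl1 was used. Windows of Il1rn and that of the proximal Il1rl1 start (chr1:40439379-40439628) overlapped annotated exons and were not printed. The proximal Il1rl1 window held no match to any of these motifs.

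Libraries of photoconverted tumors held 16735293 to 35844417 counts and those of control tumors 12576615 to 29439901. Photoconverted tumor 4 and control tumors 2 and 4 stood apart, with 21.9% to 35.7% of their counts on Rn45s, the ribosomal RNA precursor, against 2.70% to 9.65% in the other 5 tumors, and they also had the 3 lowest totals. Values are given as CPM, in which a count is divided by the size of its library after TMM correction in edgeR, and as raw counts where they are few. Of 8 epithelial markers of colon carcinoma, 3 (Krt8, Cdh1 and Vil1) passed the expression filter, and the sum of the 8 was 3.62 to 6.60 CPM. The highest was Cdh1, at no more than 3.63 CPM, while Epcam reached 0.411 CPM and Cdx2 had 0 counts in all tumors. All 9 members passed the expression filter, which required 0.428 CPM (10 counts in a library of median size) in at least 4 tumors, computed on total counts without the TMM correction. Il1a passed it in 3 photoconverted tumors and 1 control tumor, and the others passed it in all 8 tumors. In edgeR's quasi-likelihood test 0 of the 9 members had an adjusted p under 0.05, and 0 (0%) of all 14468 genes tested did. An unadjusted p under 0.05 was found for 322 of the 14468 genes (2.23%). DESeq2 gave an adjusted p to 17005 genes and put 24 of them (0.141%) past the adjusted threshold, 0 of them members.

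Per kilobase of the longest annotated transcript, Il1rl1 had the highest median level of the family over the 8 tumors, at 34.6 CPM per kb (range 17.7 to 45.2). It was followed by Il1b at 24.3 CPM per kb (14.9 to 67.1), and the order of these neighbors was not fixed, since Il1rl1 was above Il1b in 4 of 8 tumors. Il33 at 11.01 CPM per kb and Il1rn at 10.8 CPM per kb could not be ranked either, with Il33 above Il1rn in 3 of 8 tumors, whereas Il1b was above Il33 and Il1rn above Il1rap in 8 of 8 tumors. The medians of Il1rap, Il1r1 and Il1r2 lay between 6.69 and 6.79 CPM per kb. Il1rap was above Il1r1 in 3 of 8 tumors, Il1r1 was above Il1r2 in 4 of 8 tumors, and Il1r2 was above Il18 (2.96 CPM per kb) in 6 of 8. Il1a was at the bottom in 8 of 8 tumors, with a median of 0.146 CPM per kb. Of the 2 agonists of IL-1R1, Il1b thus had the higher level in each tumor.

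Il1b, the IL-1 ligand of activated myeloid cells, had 70.03, 56.1, 91.0 and 20.2 CPM in photoconverted tumors 1 to 4 and 28.2, 20.7, 37.6 and 21.1 CPM in control tumors 1 to 4. Photoconverted tumors 1 to 3 were above all controls, but photoconverted tumor 4 had the lowest value of the 8, so the groups overlapped. The means were 59.3 ± 29.8 CPM and 26.9 ± 7.93 CPM (SD, n = 4 each), a log2 fold change of 1.14 with a 95% interval of 0.24 to 2.04 (unadjusted p = 0.0189, adjusted p = 0.999 in edgeR). By exact permutation of the 8 tumors the difference was within the spread of the replicates (two-sided exact permutation test on log2 CPM, p = 0.143). Leaving out single tumors moved the log2 CPM difference of 0.99 both ways. It was 0.72 without photoconverted tumor 3 (exact permutation p = 0.257) and 1.44 without photoconverted tumor 4, the tumor that overlapped. The exact permutation p was then 0.0286, the smallest that 3 tumors against 4 allow. Removing the overlapping tumor separated the groups, so this p depends on the choice of tumor.

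Il1a, the other agonist of IL-1R1, was detected at the limit of these libraries. Photoconverted tumors 1 to 4 had 44, 14, 15 and 0 raw counts of Il1a, and the 4 controls had 14, 1, 5 and 2. The 0 in photoconverted tumor 4 allows up to 0.205 CPM, which is above the level of 3 of the 4 control tumors, so a difference between these tumors was not detectable at this depth. Photoconverted tumor 1 had the highest value, 1.10 CPM, and the log2 fold change was 1.31 with an interval of -0.42 to 3.04 (adjusted p = 0.999 in edgeR). It was 0.70 without photoconverted tumor 1 and 1.95 without control tumor 1, and the plain difference in mean log2 CPM was 0.71, or 0.22 without photoconverted tumor 1. The size of a difference in Il1a thus rested on single tumors. An annotated gene on the opposite strand, Gm14023, shares exon positions with Il1a and had 0.244 to 0.752 CPM. Whether reads were counted by strand is not given in the sources used here, so reads of these 2 genes may not have been kept apart.

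The antagonist gene Il1rn had the smallest unadjusted p of the family. It had 81.3, 55.7, 110.4 and 16.7 CPM in photoconverted tumors 1 to 4 and 21.3, 16.9, 33.8 and 13.6 CPM in control tumors 1 to 4. As for Il1b, photoconverted tumors 1 to 3 were above every control tumor, and photoconverted tumor 4 lay among the controls. Mean values were 66.0 ± 39.8 CPM and 21.4 ± 8.86 CPM (SD, n = 4 each), with a log2 fold change of 1.62, an interval of 0.48 to 2.76 and an unadjusted p = 0.0106 (adjusted p = 0.999 in edgeR). It ranked 68 of 14468 genes by that p, and the exact permutation test gave p = 0.114. Its log2 CPM difference of 1.41 was 1.07 without photoconverted tumor 3 (exact permutation p = 0.2) and 1.97 without photoconverted tumor 4, which again gave the smallest possible p. The photoconverted tumor was higher in 4 of 4 same-numbered pairs, by 1.93, 1.71, 1.71 and 0.30 on the log2 CPM scale. Secreted and intracellular forms of IL-1Ra come from this gene and are not separated by the counts.

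**Figure D1:**
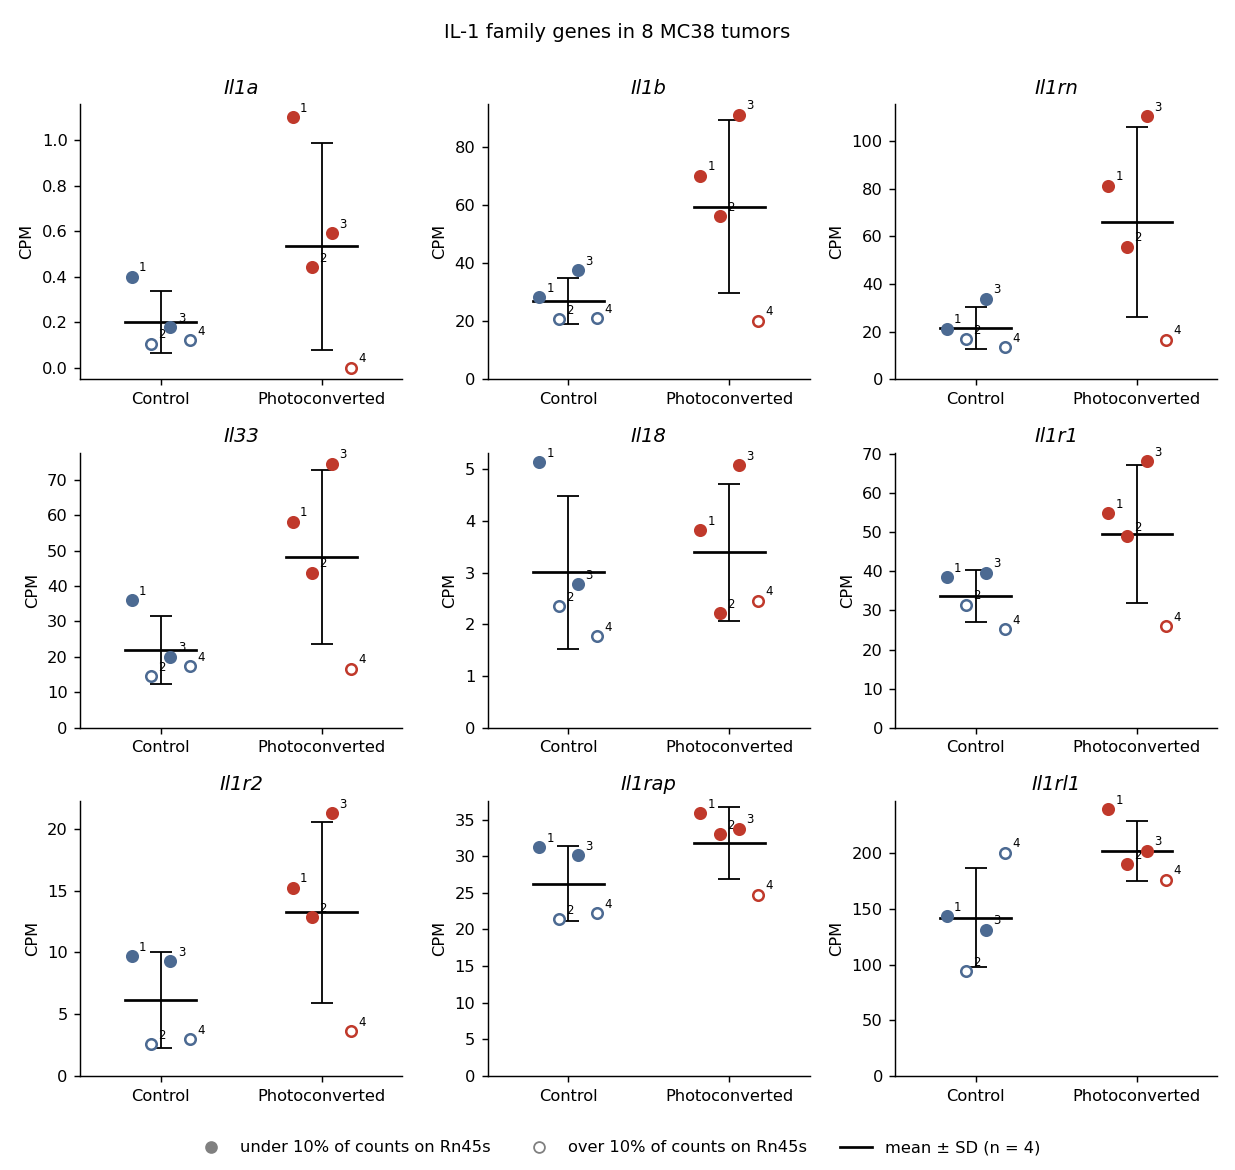
CPM of the 9 IL-1 family genes in each tumor (y axes, linear) for control and photoconverted groups, with tumor numbers beside the points, means as horizontal lines and SD as bars (n = 4 each). Open points are the 3 tumors with over 10% of counts on Rn45s, which are the lowest for all genes but Il18 and Il1rl1. For Il1a they hold 0 to 2 counts, too few to place them below control tumor 3.

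Among the receptors of IL-1, Il1r1, the signaling chain, had 54.9, 48.9, 68.2 and 26.04 CPM in photoconverted tumors and 38.5, 31.5, 39.7 and 25.2 CPM in control tumors, in order of tumor number. Its means were 49.5 ± 17.6 CPM and 33.7 ± 6.72 CPM (SD, n = 4 each), and its log2 fold change was 0.55 (interval -0.06 to 1.17, unadjusted p = 0.0721, adjusted p = 0.999 in edgeR). The log2 CPM difference of Il1r1 was 0.49 with all 8 tumors (exact permutation p = 0.171). The difference was 0.31 without photoconverted tumor 3 (exact permutation p = 0.4). It was 0.77 without photoconverted tumor 4, the tumor that overlapped (exact permutation p = 0.0286, the smallest that 3 tumors against 4 allow). Leaving out that tumor removed the overlap, so this p depends on the choice of tumor. The decoy receptor Il1r2 had 15.2, 12.9, 21.3 and 3.62 CPM in photoconverted tumors and 9.71, 2.57, 9.28 and 2.99 CPM in control tumors. In Il1r2 the lowest and highest tumor differed 8.28-fold, similar to the 8.15-fold range of Il1rn and wider than the 1.67-fold range of Il1rap. Both groups were split, with photoconverted tumor 4 and control tumors 2 and 4 below 4 CPM and the other 5 tumors above 9 CPM, and these 3 low tumors are those with a high Rn45s share. The log2 fold change of Il1r2 was 1.08 (interval -0.20 to 2.36, unadjusted p = 0.0890, adjusted p = 0.999 in edgeR).

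Il1rap, the accessory chain shared by the IL-1 and IL-33 receptors, varied least. It had 35.9, 33.0, 33.8 and 24.7 CPM in photoconverted tumors 1 to 4 and 31.2, 21.4, 30.1 and 22.2 CPM in control tumors 1 to 4. The 3 tumors with a high Rn45s share were again the lowest, and among the other 5 the photoconverted tumors were above both controls by a small margin. The log2 fold change was 0.28 with an interval of -0.12 to 0.67 (adjusted p = 0.999 in edgeR), so a difference of 2-fold or more lay outside the interval.

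Il33, an alarm signal of damaged tissue, had 58.2, 43.8, 74.5 and 16.7 CPM in photoconverted tumors 1 to 4 and 36.0, 14.6, 20.05 and 17.3 CPM in control tumors 1 to 4. Photoconverted tumors 1 to 3 were above all controls, and photoconverted tumor 4 was below 3 of the 4. The means were 48.3 ± 24.5 CPM and 21.98 ± 9.60 CPM (SD, n = 4 each), with a log2 fold change of 1.13, an interval of 0.15 to 2.11 and an unadjusted p = 0.0284 (adjusted p = 0.999 in edgeR, exact permutation p = 0.114).

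The tumors fell in another order for Il1rl1, its receptor. There were 239, 190, 202 and 176 CPM in photoconverted tumors 1 to 4 and 144, 94.1, 131 and 200.3 CPM in control tumors 1 to 4. The tumors numbered 4 were not among the 3 lowest for this gene, and control tumor 4 was the only control above any photoconverted tumor. The means were 202 ± 27.1 CPM and 142 ± 44.0 CPM (SD, n = 4 each), a log2 fold change of 0.50 with an interval of 0.02 to 0.99 (unadjusted p = 0.0434, adjusted p = 0.999 in edgeR, exact permutation p = 0.0857). The log2 CPM difference was 0.55 with all tumors. When single tumors were left out it ranged from 0.37 without control tumor 2 (exact permutation p = 0.171) to 0.73 without control tumor 4, the control that overlapped (exact permutation p = 0.0286, the smallest possible). Transcripts of membrane ST2 and of its soluble decoy are counted together in these values.

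Il18 had the smallest log2 fold change of the family. Its values were 3.83, 2.21, 5.08 and 2.46 CPM in photoconverted tumors 1 to 4 and 5.14, 2.35, 2.77 and 1.77 CPM in control tumors 1 to 4, with control tumor 1 the highest of the 8. The log2 fold change was 0.15, with an interval from -0.72 to 1.03 that holds differences of up to 2.04-fold in favor of photoconverted tumors (adjusted p = 0.999 in edgeR). Il18 did not keep its sign when single tumors were left out, and in the 5 tumors with a low Rn45s share the log2 fold change was -0.11.

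All 9 members had a log2 fold change above 0, compared with 46.8% of all genes tested, and 5 of 9 (Il1a, Il1b, Il1rn, Il1r2 and Il33) had one above 1, compared with 1.49%. The second count depends on the fit, since Il1b, Il33 and Il1r2 were just below 1 with the Rn45s share as a covariate (0.95 to 0.99), and Il1a and Il1b were below 1 in limma (0.66 and 0.99). Il1a, 1 of the 5 above 1, passed the expression filter in 3 photoconverted tumors and 1 control tumor, with at most 44 counts in a tumor. The median was 1.08 over the 9 members and -0.01 over all genes tested. In 4 of 9 members (Il1rn, Il1b, Il33 and Il1rl1) the unadjusted p was under 0.05 in the higher direction, against 1.65% of all genes. None passed the adjusted threshold in edgeR, limma or DESeq2. DESeq2's Wald test gave the same 4 members an unadjusted p under 0.05 in the higher direction, against 2.06% of its 20558 genes. Its lowest adjusted p for a member was 0.295, for Il1rn. In 0 of 9 members were the groups free of overlap, which was so in 1.33% of all genes, and 0 of 9 had an exact permutation p under 0.05. The members are not independent of each other, since the same tumors were high or low for most of them. They were also chosen with earlier results of these data known, so these counts are a description and not an independent test.

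The replicate number was then used as a block, a pairing that the labels do not state and that was taken from correlations in these same data. With it, 8 of 9 members (all but Il18) had an unadjusted p under 0.05 in edgeR, in the higher direction, against 4.38% of all genes. These p are not independent of the choice of the block. The log2 fold changes moved little, for example to 1.45 for Il1rn (interval 0.88 to 2.03) and to 1.02 for Il1b (interval 0.47 to 1.56). Again 0 of 9 members and 0 (0%) of all genes were past the adjusted threshold, with adjusted p = 0.396 for Il1rn and adjusted p = 0.532 for Il1b in edgeR. In 4 of 9 members (Il1rn, Il1r1, Il1r2 and Il1rap) the photoconverted tumor was higher in 4 of 4 same-numbered pairs, as in 7.20% of all genes. The two-sided exact sign-flip permutation test of those pairs gave p = 0.125 for each, the smallest p that 4 pairs allow.

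A high Rn45s share went with low values of most members. For 7 of 9 members (all but Il18 and Il1rl1) the 3 tumors with over 10% of counts on Rn45s had the 3 lowest values, as did 21.0% of all genes tested. For Il1a, 1 of the 7, these tumors had 0, 1 and 2 counts. The 3 counts that libraries of these sizes resolve are 0.183 to 0.321 CPM, above the 0.178 CPM of control tumor 3. The order of Il1a is therefore not resolved. These 3 tumors, 1 photoconverted and 2 control, cannot be compared by group on their own. The 5 tumors with a lower share were 3 photoconverted and 2 control. Among them the photoconverted tumors were above both controls for 8 of 9 members (all but Il18), compared with 14.0% of all genes. For Il1a, 1 of the 8, photoconverted tumor 2 and control tumor 1 had 14 raw counts each (0.442 and 0.400 CPM). Their order comes from library size alone and is not resolved. A fit of these 5 tumors gave 6 of 9 members an unadjusted p under 0.05 in the higher direction, against 6.31% of its 15252 genes. Their log2 fold changes were 1.58 for Il1rn, 1.14 for Il1b, 1.06 for Il33, 0.79 for Il1r2, 0.61 for Il1rl1 and 0.55 for Il1r1, and the lowest adjusted p was 0.120, for Il1b in edgeR. In that fit 42 genes (0.275%) were past the adjusted threshold, and 0 of them were members. With the log2 Rn45s share as a covariate over all 8 tumors, the log2 fold changes were 1.51 for Il1a, 1.37 for Il1rn, 0.99 for Il1r2, 0.96 for Il33, 0.95 for Il1b, 0.48 for Il1rl1 and 0.45 for Il1r1, and 0 members were past the adjusted threshold in edgeR. With the replicate block and the Rn45s share together they were 1.47 for Il1rn, 0.98 for Il1b, 0.95 for Il33 and 0.93 for Il1r2. Leaving Rn45s out of the counts moved no member by as much as 0.01. The covariate thus lowered 8 of the 9 estimates, all but that of Il1a, and kept all 9 above 0.

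**Figure D2:**
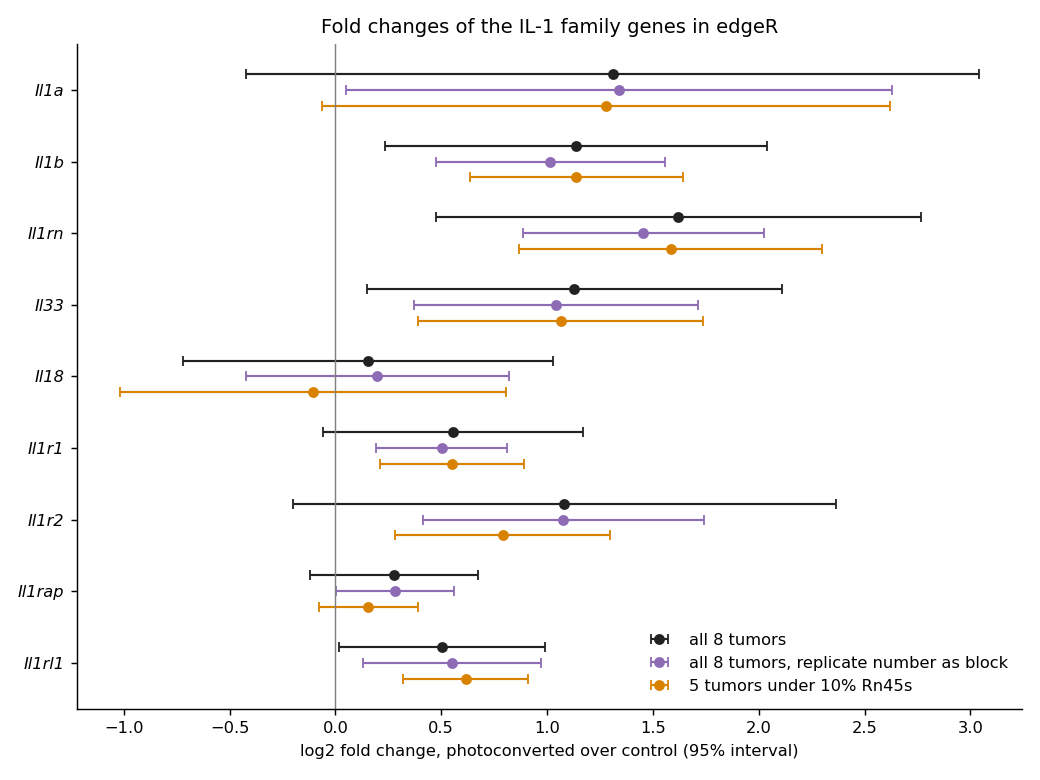
Log2 fold changes of photoconverted over control tumors (x axis) with 95% intervals for each member (y axis) from 3 edgeR fits: all 8 tumors, all 8 with the replicate number as a block, and the 5 tumors with under 10% of counts on Rn45s. Estimates of Il1a, Il1rn, Il1b and Il33 lie above 1 in each fit, and the 3 intervals of Il18 hold 0. Il1a had at most 44 counts in a tumor, and its intervals without the block hold 0.

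Ratios of 2 members within a tumor do not depend on how libraries are scaled, and 4 were tested. For each 100 reads of Il1b there were 116, 99.2, 121 and 82.7 reads of Il1rn in the photoconverted tumors, by number, and 75.5, 81.9, 89.9 and 64.2 reads in the controls. The ratio was higher in photoconverted tumors 1 to 3 than in every control tumor, and photoconverted tumor 4 lay among the controls. The mean log2 ratio was 0.05 ± 0.25 in photoconverted and -0.37 ± 0.21 in control tumors (SD, n = 4 each), a difference of 0.42 (two-sided exact permutation test, p = 0.0571, adjusted p = 0.229 over the 4 ratios). Photoconverted tumors had the higher ratio in 4 of 4 same-numbered pairs, by 0.62, 0.28, 0.43 and 0.37. The difference was 0.33 without control tumor 4 (exact permutation p = 0.114) and 0.53 without photoconverted tumor 4, the tumor that overlapped (exact permutation p = 0.0286).

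For the decoy receptor, there were 27.8, 26.3, 31.2 and 13.9 reads of Il1r2 for each 100 reads of Il1r1 in the photoconverted tumors, by number, and 25.2, 8.16, 23.4 and 11.9 reads in the controls. The ratio was low in the 3 tumors with a high Rn45s share, and the difference in log2 ratio between the groups, 0.61, was within their spread (exact permutation p = 0.171, adjusted p = 0.343). Without control tumor 2 it was 0.31 (exact permutation p = 0.457). Reads of Il1rl1 for each 100 reads of Il33 numbered 412, 435, 271 and 1057 in photoconverted tumors and 399, 646, 654 and 1156 in control tumors. Both tumors numbered 4 had the highest values, and the groups did not differ beyond their spread (difference -0.48, exact permutation p = 0.429, adjusted p = 0.571). The ratio of Il1a to Il1b, at most 1.57 reads for each 100, gave a difference of -0.38 (exact permutation p = 0.743, adjusted p = 0.743) that rests on the 0 count of photoconverted tumor 4 and was 0.24 without that tumor.

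**Figure D3:**
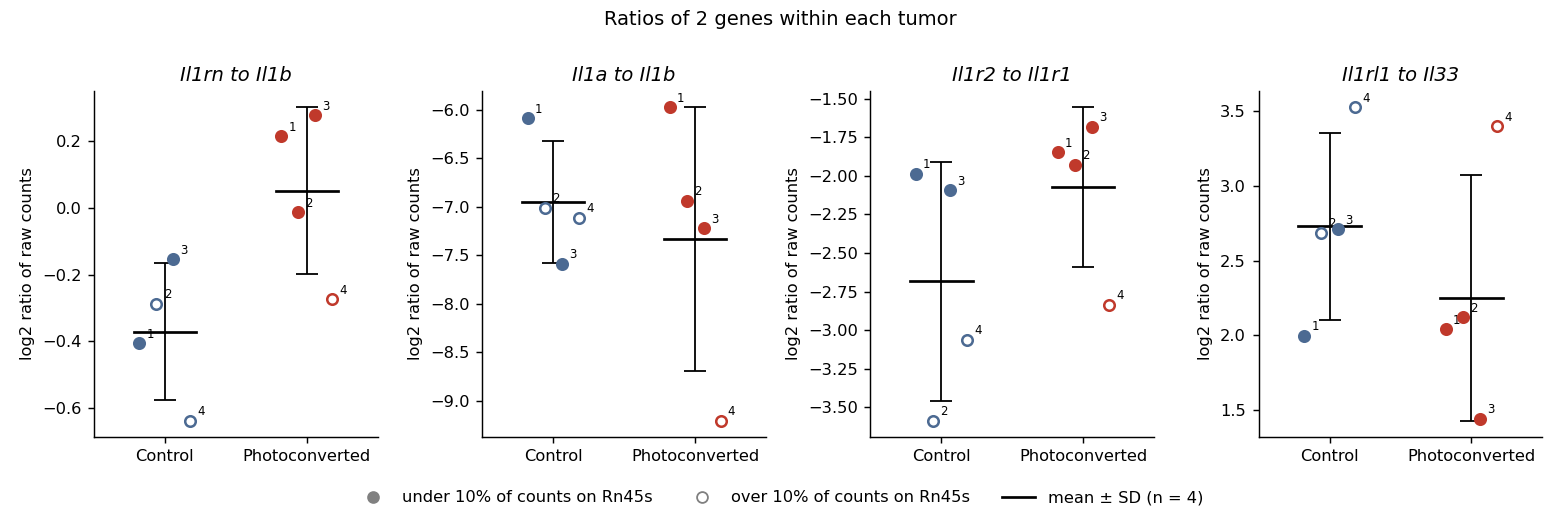
Log2 ratios of raw counts of 2 genes in the same tumor (y axes, 0.5 added to each count) for control and photoconverted tumors, with means and SD (n = 4 each). For Il1rn to Il1b, photoconverted tumors 1 to 3 are above all 4 controls, and open points mark tumors with over 10% of counts on Rn45s.

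As a measure of likeness, Pearson's r of log2 CPM with each member was computed over the 8 tumors for all genes tested, as a description of libraries that share their depth and Rn45s share. The member most like another was Il1rn with Il1b (r = 0.994, and 0.992 after group means were subtracted), where Il1rn ranked 2 among all genes for Il1b after Slc4a11 (r = 0.997) and Il1b ranked 1 for Il1rn. Both shared Slc4a11, Dusp16 and Irg1, the gene of the enzyme that makes itaconate in activated macrophages, among their 5 closest genes. The closest genes to Il1r2 were Lrp12 (r = 0.996), the chemokine receptor gene Ccr1 (r = 0.993) and Uap1 (r = 0.990), with Clec4e, a C-type lectin receptor of myeloid cells, at r = 0.990. Il1r1 was most like Dram1 and Srgn (r = 0.990 each), and Gm14005 (r = 0.989), Tfec (r = 0.986) and Cd40 (r = 0.985) completed its 5 closest genes. Those of Il33 were Rnd3 (r = 0.985), Kctd11 (r = 0.976), Nup210l (r = 0.975), Il10 (r = 0.975) and Ppbp (r = 0.973). Il1rap was closest to Zfp597 (r = 0.992), Il1a to Nipal1 (r = 0.975) and Il18 to Tmem100 (r = 0.983). The r of Il1a rests in part on the 0 to 5 counts of photoconverted tumor 4 and control tumors 2, 3 and 4. Il1rl1 and Il18 were the least like the other members. Il1rl1 had Noc3l as its closest gene (r = 0.972) and no r above 0.617 with any other member, and Il18 had none above 0.707.

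Other genes of the pathway were taken from 4 lists, which were also chosen with earlier results of these data known. Of 12 other family ligands, receptors and binding proteins, 6 passed the expression filter, 5 were higher and 1 was lower, and 0 had an adjusted p under 0.05 in edgeR. Their median log2 fold change was 0.26, and 1 gene had an unadjusted p under 0.05, in the higher direction. Over all genes tested, 46.8% were higher, the median was -0.01 and 1.65% had such a p in this direction. The gene of this list with that p was Il1f9, which encodes IL-36γ, a ligand of epithelial and myeloid cells. It had 1.95, 2.27, 3.35 and 0.0683 CPM in photoconverted tumors and 0.371, 0.428, 0.107 and 0.855 CPM in control tumors (log2 fold change 2.22, unadjusted p = 0.0259, adjusted p = 0.999 in edgeR). Photoconverted tumors 1 to 3 were above all controls for Il1f9. The value of photoconverted tumor 4 was 1 count, under the 3 counts (0.205 CPM) that a library of this size resolves, so it cannot be placed below the lowest control. Its receptor gene Il1rl2 had a log2 fold change of 1.08 (standard error 0.68, unadjusted p = 0.144 in edgeR). In the receptor run on chromosome 1, log2 fold changes were 1.08 for Il1r2, 0.55 for Il1r1, 1.08 for Il1rl2, 0.50 for Il1rl1, 0.24 for Il18r1 and 0.13 for Il18rap. Of the IL-18 receptor pair, Il18rap had 15.7 CPM per kb (median, range 12.6 to 16.9) and Il18r1 had 0.867 CPM per kb (0.220 to 1.15). Il1f6, Il1rapl1 and Il1rapl2 had 0 counts in all tumors.

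Of 16 genes that IL-1 is known to induce, 14 were tested, 13 were higher and 1 was lower, with a median log2 fold change of 0.94. Over all genes tested, 46.8% were higher. In 7 of the 14 the unadjusted p was under 0.05 in the higher direction, against 1.65% of all genes, whereas 0 had an adjusted p under 0.05 in edgeR. Since the list was chosen with earlier results of these data known, these counts are a description and not an independent test. The 3 with the smallest p were the neutrophil chemokine genes Cxcl5 and Cxcl1 and the cytokine gene Il6. Cxcl5 had 8.56, 13.3, 10.6 and 3.01 CPM in photoconverted and 3.74, 1.61, 1.88 and 2.38 CPM in control tumors (log2 fold change 1.86, unadjusted p = 0.00222 in edgeR), and 1 control tumor was above photoconverted tumor 4. For Cxcl1 the log2 fold change was 1.10 (standard error 0.36) and for Il6 it was 2.73 (standard error 0.73). Outside the main test, Cxcl5 was past the threshold in DESeq2 (adjusted p = 0.0322) and Il6 in the 5 tumors with a low Rn45s share (adjusted p = 0.0195 in edgeR).

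The signaling and processing genes had small log2 fold changes. Over all genes tested, 46.8% were higher, 2.23% had an unadjusted p under 0.05 in edgeR and the median log2 fold change was -0.01. A count of 0 at that p in a short list is thus near the share of all genes. Of 20 receptor signaling genes, all tested, 13 were higher and 7 were lower, with a median log2 fold change of 0.07 and 0 at an adjusted or unadjusted p under 0.05 in edgeR. The smallest p were those of Nfkb1 (log2 fold change 0.16, standard error 0.11), Ikbkg (-0.19, standard error 0.14) and the kinase gene Map3k8 (0.40, standard error 0.31). Of 17 inflammasome and processing genes 15 were tested, 11 were higher and 4 were lower, with a median of 0.06 and again 0 at an adjusted or unadjusted p under 0.05 in edgeR. P2rx7, the ATP-gated channel upstream of the NLRP3 inflammasome, had the smallest p of these (log2 fold change 0.44, standard error 0.21), followed by Mefv (0.48, standard error 0.31) and Casp4 (0.40, standard error 0.33).

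**Figure D4:**
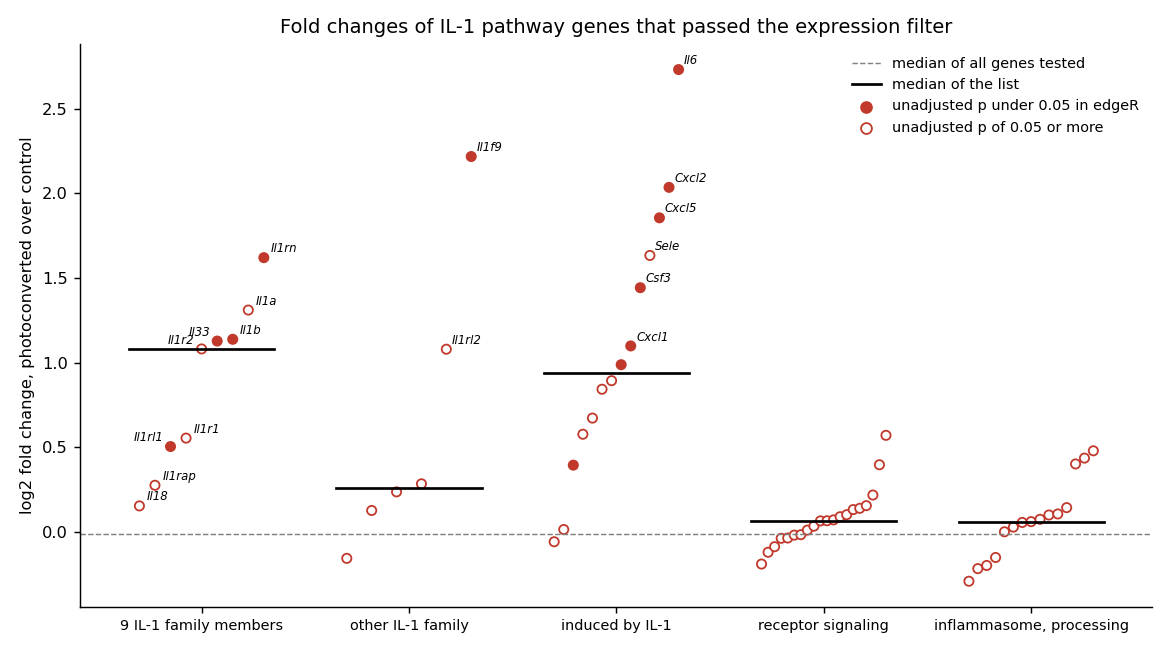
Log2 fold changes of photoconverted over control tumors in edgeR (y axis) for the tested genes of 5 lists (x axis), with list medians as solid lines and the median of all genes tested as a dashed line. Medians are 1.08 for the 9 members and 0.94 for the genes induced by IL-1, and lie below 0.3 for the other 3 lists.

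Markers of several cell types that can express these genes differed between the same tumors. Of 13 neutrophil markers, 12 were in the table and 8 were tested, all 8 higher (46.8% of all genes), 7 with an unadjusted p under 0.05 (1.65% of all genes in this direction) and 0 with an adjusted p under 0.05 in edgeR. Their summed level was 48.0 to 145 CPM in photoconverted and 38.3 to 62.3 CPM in control tumors, with photoconverted tumor 4 the lowest of its group. S100a8 and S100a9, calcium-binding proteins of neutrophils, and Trem1 had log2 fold changes of 2.62, 2.53 and 1.66. Neutrophils are known to express Il1b, Il1rn and Il1r2, and the part of the neutrophil markers in the values of these members was not tested. For 12 macrophage and monocyte markers 6 were higher and 6 lower, with a median log2 fold change of 0.02 and a summed level of 859 to 1840 CPM in photoconverted and 674 to 1693 CPM in control tumors. Of these only Cd14 had an unadjusted p under 0.05 (log2 fold change 0.74, unadjusted p = 0.0284 in edgeR).

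Of 8 mast cell markers, cells known for high ST2, 6 were tested and all 6 were higher, 2 of them (Hdc and Cma1) at an unadjusted p under 0.05, against 46.8% and 1.65% of all genes. Their sum was 26.2 to 54.6 CPM in photoconverted and 21.0 to 31.5 CPM in control tumors, with photoconverted tumor 4 the lowest of its group. In Hdc, which encodes the enzyme that makes histamine, the groups did not overlap (log2 fold change 1.02), as in 0.684% of all genes in this direction. Keratinocytes can make IL-1α, IL-33 and IL-36, and 3 of 9 keratinocyte markers were tested, all 3 higher and 1 at an unadjusted p under 0.05 in edgeR. The sum of the 9 was 17.7 and 20.2 CPM in photoconverted tumors 2 and 3, 2.38 and 2.46 CPM in photoconverted tumors 1 and 4, and 1.68 to 4.16 CPM in controls. All 8 skeletal muscle markers were higher, 2 at an unadjusted p under 0.05 in edgeR (sum 161 to 1352 CPM against 159.7 to 384 CPM). The 1352 CPM was photoconverted tumor 3 alone, and the others of its group had 161 to 644 CPM. All 7 endothelial markers were higher, 0 at an unadjusted p under 0.05 in edgeR (113 to 213 CPM against 102 to 169 CPM). The shares of all genes are again 46.8% and 1.65%. Fibroblast markers were higher for 4 and lower for 4 of 8 (3484 to 4744 CPM against 3302 to 12525 CPM). The 12525 CPM was control tumor 2 alone, and the other controls had 3302 to 4459 CPM. T cell markers were higher for 2 and lower for 6 of 8 tested (15.2 to 31.4 CPM against 9.83 to 34.4 CPM). The part of these cell types in the values of the members was not tested.

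**Figure D5:**
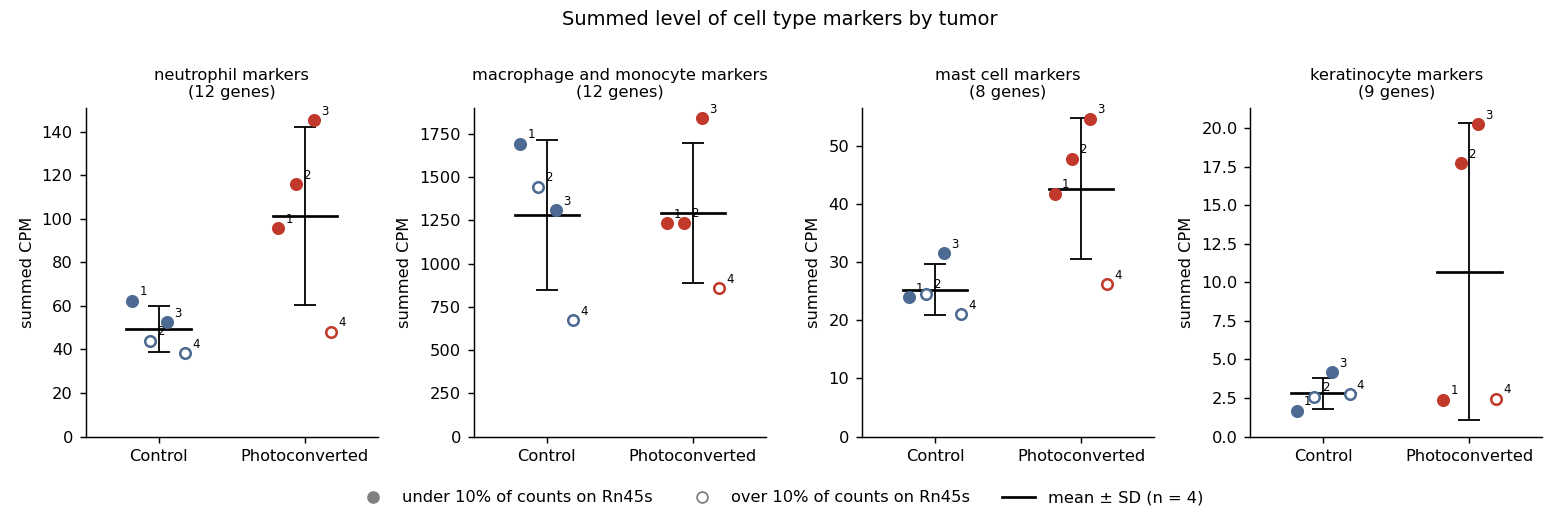
Summed CPM of neutrophil, macrophage and monocyte, mast cell and keratinocyte markers in each tumor (y axes, linear), with means and SD (n = 4 each) and open points for tumors with over 10% of counts on Rn45s. The neutrophil sum is highest in photoconverted tumors 1 to 3, between 95.6 and 145 CPM, and the macrophage and monocyte sums of the groups overlap.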

How the data were processed

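Bulk RNA-seq libraries of 4 photoconverted and 4 control MC38 tumors were compared. The authors deposited a table of raw counts for gene symbols and a second table of signal values, which were found to be the raw counts divided by DESeq2 size factors. The submitters' processing notes name CASAVA, FastQC, Trim Galore, HISAT2, featureCounts, DESeq2 and the build mm10. The annotation and strand setting are not given in the sources used here. The study's methods name a TruSeq stranded kit, whereas the labels name a SMARTER kit.

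Counts of 24421 genes were tested with edgeR 4.0.16 in R 4.3.3 (TMM, filterByExpr, glmQLFit and glmQLFTest, Benjamini-Hochberg adjustment over 14468 genes, threshold 0.05). Log2 CPM used a prior count of 2. Single values were tested by two-sided exact permutation over 70 arrangements, with no p below 0.0286. Alternatives were DESeq2 1.42.0, limma 3.58.1 on log2 of the normalized values plus 1, other scalings and filters, the replicate block, the Rn45s share and leaving out each tumor. Procedures were tested on simulated data. The labels do not say whether tumors came from separate experiments, so p-values measure the spread between these tumors, and intervals from the low counts of Il1a cover no other error.

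Same-numbered tumors deviated together from their group means (r = 0.107 to 0.623 across genes in the 4 pairs, every pair over 0.1), so their numbers were used as a block. Rn45s shares of the photoconverted and control tumor were alike in pairs 1 (4.14% and 2.70%), 3 (4.60% and 4.70%) and 4 (21.9% and 23.2%). They were unlike in pair 2 (9.65% and 35.7%), which had the r of 0.107. The part of the Rn45s share in these r was not tested. The labels give the numbers but not a shared litter, batch or day, and differently numbered tumors had r of -0.600 to 0.482, some of them above same-numbered ones. No 2 libraries of a group were alike within sampling noise (lowest chi-square per degree of freedom 23.8). The members and lists were chosen with earlier results of these data known. Named were the 9 members, at most 3 of each list by smallest p and at most 5 closest to each member, with Il1rl2, Il18r1 and Il18rap added for their position. Carcinoma markers and genes at 0 were named after their values were seen.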

Additional observations from a re-analysis of the deposited data

How the results depend on the processing

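Over 20 alternatives, 176 of 179 log2 fold changes of members kept their sign and 0 passed the adjusted threshold, with a lowest adjusted p of 0.120 in edgeR. The 3 exceptions were Il18 in the 5 tumors with a low Rn45s share (-0.11), without photoconverted tumor 3 (-0.10) and without control tumor 4 (-0.03), where it ranged up to 0.56 without single tumors. The log2 CPM difference of Il18 was -0.015 and -0.0079 without these 2 tumors and at most 0.49 without another. The number of genes past the threshold was 0 in edgeR, 24 in DESeq2, 42 in the 5 tumors and 0 to 11 without single tumors, 11 of them without photoconverted tumor 4. Of the pathway lists 0 genes passed in the main edgeR test, 1 in DESeq2 (Cxcl5), 1 in the 5 tumors (Il6) and 0 to 1 without single tumors (Il6 without photoconverted tumor 4). Without single tumors the difference in log2 ratio was 0.33 to 0.53 for Il1rn to Il1b, -0.84 to 0.24 for Il1a to Il1b, 0.31 to 0.86 for Il1r2 to Il1r1 and -0.86 to -0.21 for Il1rl1 to Il33. The replicate block changed no adjusted call, with 0 genes past the threshold, and its sign-flip permutation test gave p = 0.125 for Il1rn to Il1b. Exact tests passed 0.05 only on leaving out a tumor that had overlapped the other group, without photoconverted tumor 4 for Il1b (log2 CPM difference 1.44), Il1rn (1.97), Il1r1 (0.77) and the Il1rn to Il1b ratio (0.53), and without control tumor 4 for Il1rl1 (0.73). Each such omission removed the overlap, so these p depend on the choice of tumor and are not tests of the whole groups. Dixon's test flagged no tumor in the 26 groups examined, and this does not extend to values outside those groups. Depth limits Il1a, with at most 44 counts in a tumor. The causes of these changes were not tested.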
